A study of Danio rerio with 24 samples.

Results

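The 10 genes described here encode the enzymes, the fibril proteins, the transporters and a receptor of the melanosome, the organelle in which black pigment is made. They are tyr, tyrp1a, tyrp1b, dct, pmela, pmelb, oca2, slc45a2, slc24a5 and gpr143, chosen by gene name from a table of 37660 genes. All 10 were found in the table, and all 10 were among the 27010 genes with counts high enough to be tested. The measurements came from 24 RNA-seq libraries, made from polyadenylated RNA of whole zebrafish embryos labelled 3 days post fertilisation and with about 50 embryos pooled per library. The libraries formed 6 groups of 4, which the labels call biological replicates.

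Embryos labelled knockout (KO) and wild-type (WT) embryos had each received DMSO, the solvent, or 0.5 µM of the small molecule ML233, with exposure times of 3 h and 24 h. ML233 is known as an agonist of the apelin receptor, and the series' title names it as an inhibitor of tyrosinase, the product of tyr. KO libraries carried the name APLNrKO in their titles. The growth protocol describes mutants of aplnra and aplnrb from the AB strain and controls that shared their grandparents, whereas the design text names apelin. The mutated gene is therefore not stated here beyond the label. The DMSO libraries were labelled 0 h, so a difference between ML233 and DMSO cannot be told apart from one due to the hours between the labelled times. The labels do not say whether embryos had been treated with an inhibitor of pigmentation.

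Melanin synthesis starts when tyrosinase, a copper enzyme, oxidises tyrosine to dopaquinone. Dopachrome tautomerase (Dct) and the tyrosinase-related proteins act on later intermediates, and the polymer is laid down on amyloid fibrils of the Pmel proteins. Membrane transporters set the ion balance and the acidity inside the melanosome, on which tyrosinase activity depends. In zebrafish larvae these genes are transcribed in neural-crest melanocytes and in the retinal pigment epithelium (RPE), and pigmentation is well under way at the age studied. In whole embryos, fewer pigment cells and less RNA per cell cannot be told apart, and neither can melanocytes and RPE. Transcript counts do not measure enzyme activity.

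Total counts per library lay between 28950937 and 43352202. All 8 markers of muscle, lens, neurons, liver, skin and blood that were checked were detected in every library, the lowest being cryaa at 17.6 counts per M counts (CPM, M being the SI prefix mega, with library sizes scaled as described for the test). Transcripts of aplnrb lay between 9.7 and 17.7 CPM in the 12 KO libraries and between 21.4 and 27 CPM in the 12 WT libraries. Those of aplnra ran over 13.3 to 21.3 CPM in KO libraries, against 23.3 to 25.8 CPM in WT libraries. Libraries of the same group stood apart from each other. On the first principal component of log2 CPM, which held 41.6% of the variance, KO replicates 2 and 4 in DMSO and at 24 h and replicates 3 and 4 at 3 h lay at 37.5 to 143.2. The other KO libraries lay at -47.5 to -27.9. On the second component, WT replicates 3 and 4 ranged from -66.8 to -40, and WT replicates 1 and 2 from -0.4 to 6.3. No label names what the libraries of such a pair share.

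The 10 genes differed widely in level. Set per kilobase of the length given in the table, mean levels over the 24 libraries were 47.8 CPM per kb for tyrp1b, 31.5 for pmela, 18.3 for dct and 12.8 for tyrp1a. They were 6 CPM per kb for pmelb, 4.83 for slc45a2, 4.11 for gpr143, 3.46 for tyr, 0.822 for slc24a5 and 0.577 for oca2. The first enzyme of the pathway thus stood eighth in this order, below both tyrosinase-related genes and dct. The gaps from pmelb to slc45a2, to gpr143 and to tyr were each smaller than the larger SD between libraries of a group for the neighbouring genes. All other neighbours were further apart than that SD. The coefficient of variation within groups was lowest for tyrp1a, at 10.9%, and highest for oca2, at 38.7%. Counting alone would give 3.46% for tyrp1a and 15% for oca2, which had 20 to 113 counts per library. For tyr, with 94 to 359 counts per library, the value was 21.6% against 6.71% from counting. Counts of reads are not counts of independent molecules, so these counting values are lower limits.

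Tyrosinase, encoded by tyr (ENSDARG00000039077, chromosome 15, 43799258 to 43818697, plus strand, GRCz11), is the enzyme whose loss makes the zebrafish mutant sandy unpigmented. Its level in KO replicates 1 to 4 was 6.12, 7.33, 7.95 and 7.38 in DMSO, 6.72, 5.15, 7.3 and 8.7 after 3 h and 6.96, 3.19, 8.15 and 6.11 after 24 h, all in CPM. In WT replicates 1 to 4 it was 7.21, 6.84, 6.42 and 6.52 in DMSO, 8.35, 6.25, 5.9 and 4.49 after 3 h and 9.36, 7.46, 5.23 and 6.89 after 24 h, all in CPM. All 6 groups overlapped, and the libraries spread more in the ML233 groups than in DMSO: the SD was 1.47, 2.12, 1.59 and 1.7 CPM at KO 3 h, KO 24 h, WT 3 h and WT 24 h, against 0.767 and 0.357 CPM in KO and WT DMSO. That difference in spread was not tested. The lowest library of all was KO 24 h replicate 2, which also lay farthest out on the first component, at 143.2. The highest was WT 24 h replicate 1.

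The tyrosinase-related genes tyrp1a (ENSDARG00000029204, chromosome 7, 74084203 to 74090168, minus strand) and tyrp1b (ENSDARG00000056151, chromosome 1, 19332837 to 19346048, plus strand) encode relatives of tyrosinase that in mice act late in eumelanin synthesis. The level of tyrp1a was 18.4, 23.8, 26 and 22.6 in KO DMSO replicates 1 to 4, 20.1, 17.9, 20.9 and 26.5 in KO 3 h and 23.7, 27.3, 26.1 and 20.4 in KO 24 h libraries, all in CPM. In WT it was 26.7, 23.6, 25.3 and 26.5 in DMSO, 26.5, 23.5, 29.8 and 26.9 after 3 h and 26.1, 29.1, 26.8 and 26.7 after 24 h, all in CPM. The KO median of 23.2 CPM lay below every WT library, though the ranges overlapped. The level of tyrp1b was 63.3, 95, 79.8 and 96.2 in KO DMSO, 60.4, 61.2, 90.4 and 108 in KO 3 h and 85.7, 128, 87.2 and 110 in KO 24 h libraries, all in CPM. In WT, tyrp1b had 82.7, 76.1, 111 and 91.3 in DMSO, 78.8, 66.7, 136 and 116 after 3 h and 92.9, 94.5, 136 and 111 after 24 h, all in CPM. Replicates 3 and 4 were the high libraries in each WT group, and all 6 groups overlapped.

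Dopachrome tautomerase, encoded by dct (ENSDARG00000006008, chromosome 9, 53327332 to 53352682, plus strand), is also an early melanoblast marker. Its level was 33.7, 37.1, 42.4 and 35.5 in KO DMSO replicates 1 to 4, 28, 26.9, 35.3 and 40.1 in KO 3 h and 39.9, 44.1, 39 and 37.3 in KO 24 h libraries, all in CPM. WT replicates 1 to 4 had 42.2, 40.9, 47.4 and 40.2 in DMSO, 36.7, 28, 56.9 and 47.2 after 3 h and 42.9, 41.8, 50 and 43.9 after 24 h, all in CPM. The widest group was WT 3 h, where replicates 3 and 4 were the high libraries and replicate 2 was the low one.

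Pmel proteins form the fibrils of the early melanosome. For pmela (ENSDARG00000091298, chromosome 11, 3254252 to 3272020, plus strand) the level was 81.3, 115, 99.5 and 124 in KO DMSO replicates 1 to 4, 71.5, 73.9, 103 and 135 in KO 3 h and 95.5, 137, 99.4 and 116 in KO 24 h libraries, all in CPM. For WT replicates 1 to 4 it was 105, 101, 120 and 113 in DMSO, 96.4, 83.9, 139 and 126 after 3 h and 109, 108, 125 and 117 after 24 h, all in CPM. Replicates 3 and 4 were the high libraries in each WT group. The paralog pmelb (ENSDARG00000033760, chromosome 23, 35672542 to 35690336, plus strand) had 10.1, 10.7, 12.3 and 9.71 in KO DMSO, 7.64, 6.3, 11.7 and 14.7 in KO 3 h and 10.9, 13.1, 10.6 and 12.2 in KO 24 h libraries, all in CPM. In WT, pmelb had 10.3, 10.7, 19.7 and 17.6 in DMSO, 10.8, 7.67, 22.8 and 24.9 after 3 h and 10.4, 10.7, 22.8 and 17.9 after 24 h, all in CPM. Here WT replicates 3 and 4 stood above every KO library, which reached 14.7 CPM at most, and WT replicates 1 and 2 lay within the KO range. Reads of close paralogs can be split between copies in ways the sources used here do not describe.

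The transporter genes included the least abundant of the 10 per length, oca2 and slc24a5. In people, loss of OCA2 or SLC45A2 causes albinism, and slc45a2 and slc24a5 are the genes of the zebrafish mutants albino and golden. For oca2 (ENSDARG00000061303, chromosome 6, 37894220 to 38054851, plus strand) the level was 1.88, 0.993, 2.26 and 2.01 in KO DMSO replicates 1 to 4, 1.39, 1.05, 1.27 and 0.87 in KO 3 h and 1.27, 0.915, 0.535 and 1.41 in KO 24 h libraries, all in CPM. WT libraries 1 to 4 held 3.07, 1.65, 1.66 and 1.29 in DMSO, 1.28, 0.59, 2.24 and 1.18 after 3 h and 2.27, 0.908, 1.46 and 1.88 after 24 h, all in CPM. The mean was 1.15 ± 0.233 CPM at KO 3 h and 1.03 ± 0.392 CPM at KO 24 h, against 1.79 ± 0.552 CPM in KO DMSO (SD, n = 4 each), and KO DMSO replicate 2 lay inside the range of the treated libraries.

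For slc45a2 (ENSDARG00000002593, chromosome 21, 19445942 to 19484289, plus strand) the level was 6.6, 11.6, 6.14 and 11.4 in KO DMSO replicates 1 to 4, 7.77, 6.84, 8.02 and 9.57 in KO 3 h and 5.92, 13.5, 6.82 and 11.5 in KO 24 h libraries, all in CPM. The WT replicates had 8.84, 7.51, 8.89 and 7.91 in DMSO, 6.12, 7.02, 10.4 and 8.75 after 3 h and 6.7, 8.07, 9.41 and 7.11 after 24 h, all in CPM. In each KO group the 2 high libraries were those with a first component above 0. The same libraries were also the 2 high ones of each KO group for pmela and tyrp1b. They had 103 to 137 CPM of pmela, against 71.5 to 99.5 CPM in the other KO libraries. For tyrp1b they had 90.4 to 128 CPM, against 60.4 to 87.2 CPM. For the rest of the 10 genes this did not hold in every KO group. KO libraries with a first component above 0 held 9.7 to 12.4 CPM of aplnrb, against 16.1 to 17.7 CPM in the other KO libraries. For aplnra they held 13.3 to 16.8 CPM, against 17.2 to 21.3 CPM. The first component was computed from these same counts, so separation of genes along it is in part built in. The share of all genes split in this way was not counted. Whether the levels of slc45a2, pmela, tyrp1b, aplnra and aplnrb share a source was not tested.

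For slc24a5 (ENSDARG00000024771, chromosome 18, 5213338 to 5227420, plus strand), which encodes a potassium-dependent sodium-calcium exchanger, the level was 1.44, 1.34, 1.45 and 1.75 in KO DMSO replicates 1 to 4, 1.95, 1.76, 2.04 and 2.1 in KO 3 h and 1.38, 0.983, 1.71 and 1.85 in KO 24 h libraries, all in CPM. In WT embryos it was 1.25, 2.01, 1.53 and 2 in DMSO, 1.54, 1.53, 1.41 and 1.18 after 3 h and 1.67, 1.82, 1.49 and 2.33 after 24 h, all in CPM. All 4 KO 3 h libraries lay above all 4 KO DMSO libraries and above all 4 WT 3 h libraries, by a small margin in each case. It had 29 to 91 counts per library, and its coefficient of variation within groups was 17.6%, where counting alone would give 13.5%.

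The receptor gene gpr143 (ENSDARG00000034572, chromosome 9, 55056310 to 55090829, plus strand) encodes a G-protein-coupled receptor of the melanosome membrane that is mutated in human ocular albinism. Its level was 5.2, 6.82, 6.3 and 6.69 in KO DMSO replicates 1 to 4, 4.79, 5.83, 5.4 and 6.93 in KO 3 h and 5.18, 9.32, 4.92 and 7.37 in KO 24 h libraries, all in CPM. Replicates 1 to 4 of WT had 5.3, 6.32, 8.26 and 8.52 in DMSO, 5.5, 6.63, 11 and 9.64 after 3 h and 6.6, 6.19, 9.04 and 8.77 after 24 h, all in CPM. Replicates 3 and 4 were the high libraries in each of the 3 WT groups.

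**Figure D1:**
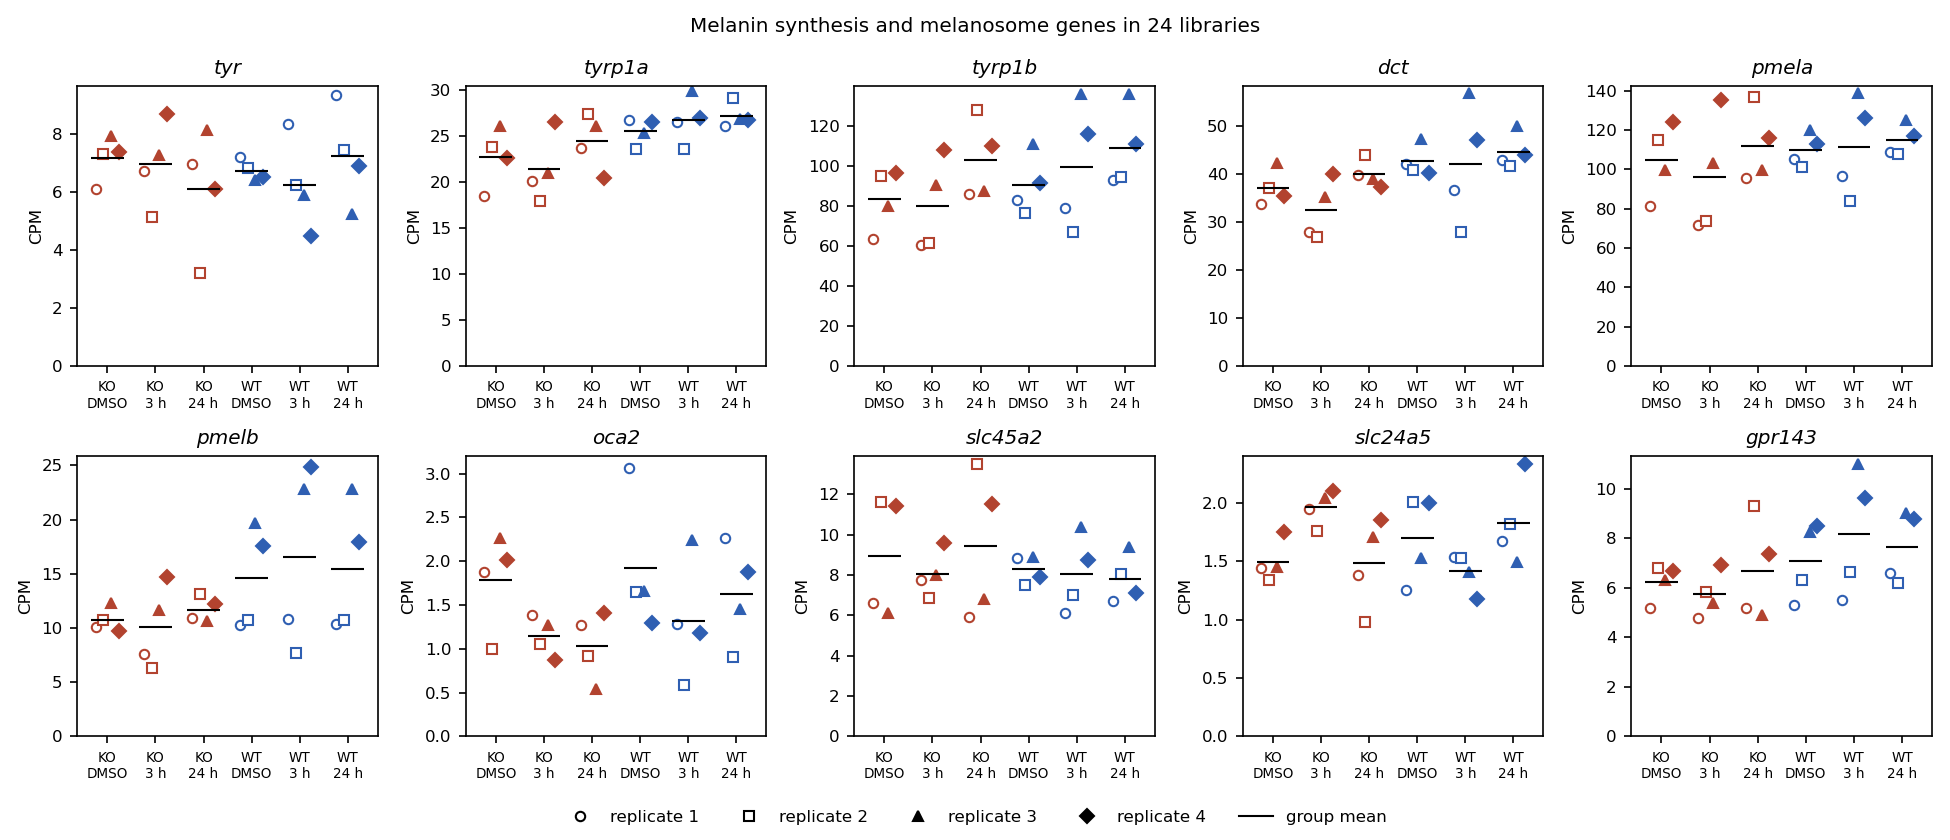
Levels of the 10 genes in every library, in counts per M counts (CPM, y axis from 0), for KO (red, left) and WT (blue, right) embryos in DMSO and after 3 h and 24 h of ML233. Open symbols are replicates 1 and 2, filled symbols replicates 3 and 4, and lines are group means. The filled WT symbols stand above the open ones for pmelb (17.6 to 24.9 against 7.67 to 10.8 CPM), and tyr overlaps between all groups.

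ML233 was compared with DMSO within each genotype to ask whether the transcripts of its proposed target and of the other melanosome genes changed with exposure. No gene of the 10 passed the test in any of the 4 comparisons, by edgeR's quasi-likelihood test with Benjamini-Hochberg adjustment over all 27010 genes (adjusted p under 0.05). The background was the same: 0% of all tested genes were called in each of KO 3 h, KO 24 h, WT 3 h and WT 24 h against DMSO. At an unadjusted p under 0.05, 0 of the 10 genes were below the threshold in each comparison, beside 1.51% of all genes at KO 3 h, 2.82% at KO 24 h, 1.68% at WT 3 h and 0.929% at WT 24 h. DESeq2 also called 0 of the 10 in each, with 1 below an unadjusted p of 0.05 at KO 24 h and 0 in the other 3.

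For tyr the log2 fold change of ML233 over DMSO was -0.05 at KO 3 h (SE 0.23, 95% interval -0.53 to 0.43, edgeR adjusted p = 1) and -0.24 at KO 24 h (SE 0.23, -0.72 to 0.25, edgeR adjusted p = 0.997). In WT embryos it was -0.11 at 3 h (SE 0.23, -0.60 to 0.37) and 0.10 at 24 h (SE 0.23, -0.38 to 0.58), both with an edgeR adjusted p of 1. The 4 intervals include 0 and together run from -0.72 to 0.58. Without KO 24 h replicate 2, the lowest library for tyr, the KO 24 h value was -0.02, and without KO 24 h replicate 3 it was -0.41. These were the ends of the range over fits that left out a single library. A p above the threshold does not show that tyr was unaltered.

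Over the 10 genes the median log2 fold change was -0.11 at KO 3 h, where 9 values were negative, and 0.10 at KO 24 h, where 7 were positive. In WT it was 0.00 at 3 h and 0.09 at 24 h, with 5 and 8 positive values. The medians of all tested genes lay between -0.01 and 0.00. The largest values belonged to oca2, at -0.64 for KO 3 h (SE 0.38, edgeR adjusted p = 1), -0.79 for KO 24 h (SE 0.39, unadjusted p = 0.0518, edgeR adjusted p = 0.997) and -0.54 for WT 3 h (SE 0.38, edgeR adjusted p = 1). At 24 h in WT the largest was tyrp1b, at 0.27 (SE 0.22, edgeR adjusted p = 1). The narrowest intervals were those of tyrp1a, which ran from -0.34 to 0.16 at KO 3 h, from -0.15 to 0.35 at KO 24 h, from -0.19 to 0.32 at WT 3 h and from -0.16 to 0.34 at WT 24 h. The comparisons at 3 h and 24 h share their DMSO libraries.

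Across the 10 genes and the 4 comparisons, ML233 and DMSO libraries were free of overlap only for the exchanger gene slc24a5 at KO 3 h. There slc24a5 reached a log2 fold change of 0.39 with SE 0.21 and an edgeR adjusted p of 1. Such separation of 4 from 4 libraries in either direction was seen for 1.58% of all genes at KO 3 h, 1.52% at KO 24 h, 2.98% at WT 3 h and 1.15% at WT 24 h. In WT 3 h its value was -0.26 (SE 0.21, edgeR adjusted p = 1). The interaction at 3 h, which is the KO fold change minus the WT one, was 0.65 (SE 0.29, unadjusted p = 0.0372, edgeR adjusted p = 1). It was the only one of the 10 below an unadjusted p of 0.05 for such a difference at 3 h, beside 0.929% of all genes, and at 24 h there were 0 of 10 beside 1.14%. The adjusted test called 0% of all genes for the difference in response at 3 h and at 24 h, and 0 of the 10 by edgeR or DESeq2. With tyr the difference was 0.06 at 3 h (SE 0.33) and -0.34 at 24 h (SE 0.33), both with an edgeR adjusted p of 1. The 24 h difference was -0.12 without KO 24 h replicate 2 and -0.51 without KO 24 h replicate 3.

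**Figure D2:**
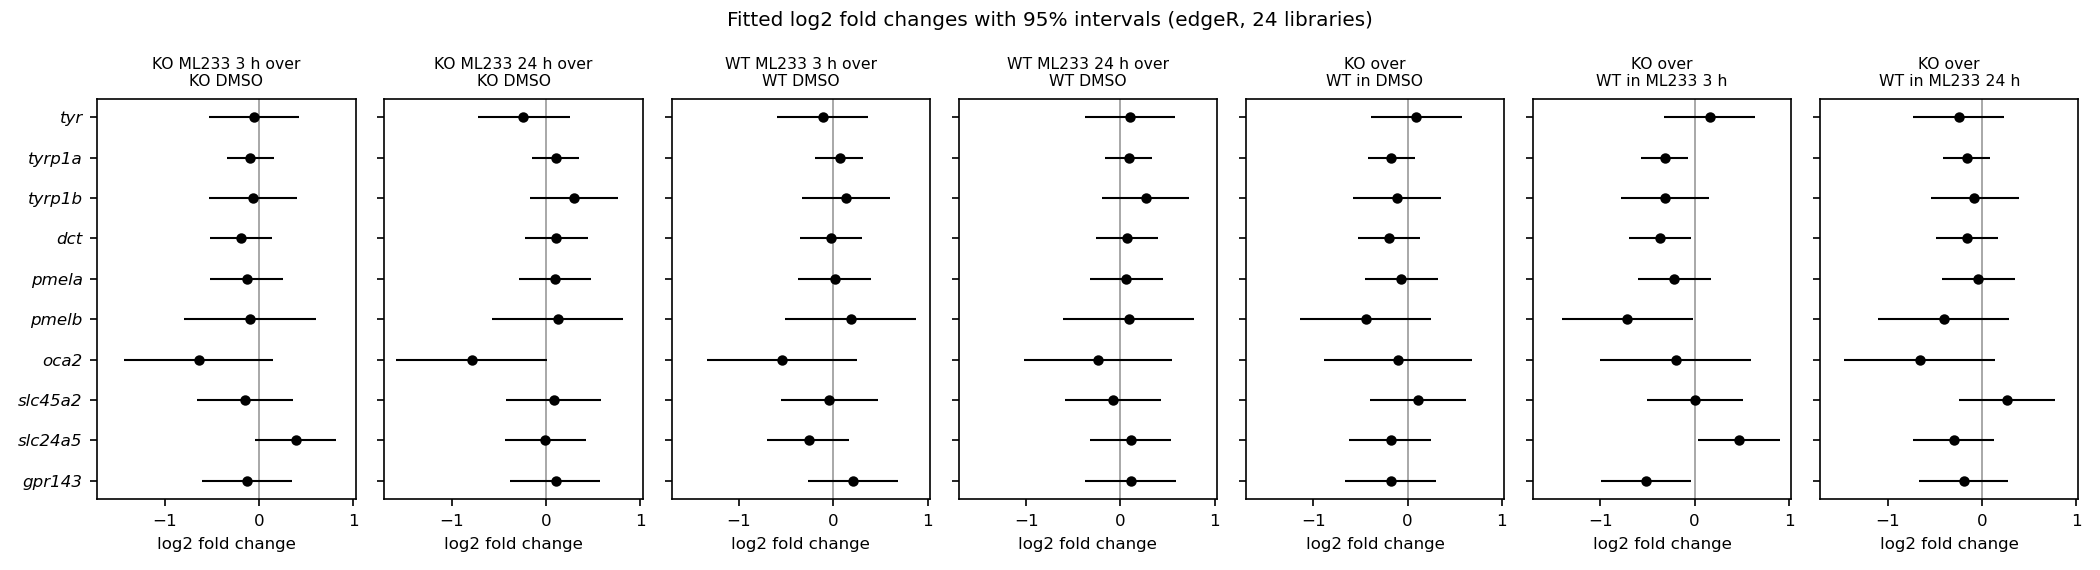
Fitted log2 fold changes (x axis) of the 10 genes (rows) in the 7 pairwise comparisons, each with its 95% interval as a line. The 4 panels of ML233 over DMSO come first and hold no interval that excludes 0. In the panel of KO over WT at 3 h the intervals of tyrp1a, dct, pmelb, slc24a5 and gpr143 exclude 0 before adjustment.

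KO embryos were compared with WT embryos at each treatment. No gene of the 10 passed the adjusted edgeR test in DMSO, at 3 h or at 24 h, beside 0.148%, 0.148% and 0.459% of all genes. The values leaned to lower levels in KO: 8 of 10 log2 fold changes were negative in DMSO (median -0.14), 8 of 10 at 3 h (median -0.26) and 9 of 10 at 24 h (median -0.18), whereas the median of all genes lay between -0.02 and 0.00. The 3 comparisons do not repeat each other independently, since WT libraries of the same replicate number deviated together from their group means (r across genes of 0.349 to 0.512 between DMSO and 3 h or 24 h). With WT replicates 1 and 2 only, the number of negative values among the 10 was 4 in DMSO, 3 after 3 h and 5 after 24 h of ML233. At an unadjusted p under 0.05 there were 0 of 10 genes in DMSO, 5 at 3 h and 0 at 24 h, beside 10.7%, 12% and 14.6% of all genes. DESeq2 gave the same 3 counts and called 0 of 10.

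The 5 genes at 3 h were gpr143, with a log2 fold change of -0.52 (SE 0.23), pmelb with -0.72 (SE 0.34), dct with -0.37 (SE 0.16), tyrp1a with -0.32 (SE 0.12) and slc24a5 with 0.47 (SE 0.21). Their edgeR adjusted p lay between 0.276 for tyrp1a and 0.401 for pmelb. In 4 of the 5, KO and WT libraries overlapped, and slc24a5 was higher in 4 of 4 KO libraries. Across the 10 genes and the 3 treatments, this was the only case in which the 4 KO and 4 WT libraries did not overlap. Among all genes, 7.08% were so separated in DMSO, 6.82% at 3 h and 5.86% at 24 h. Over all treatments 0 of 10 genes separated the 12 KO from the 12 WT libraries, as 0.6% of all genes did. The KO-over-WT log2 fold change of tyr was 0.09 in DMSO (SE 0.23, edgeR adjusted p = 0.949), 0.16 at 3 h (SE 0.23, edgeR adjusted p = 0.888) and -0.24 at 24 h (SE 0.23, edgeR adjusted p = 0.674). Over the fits that left out a single library, the value at 24 h ran from -0.41 to -0.03.

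For pmelb, dct and gpr143, the KO-over-WT values at 3 h rested on which WT libraries were used. With WT replicates 3 and 4 only, an alternative chosen after seeing the data, 3 of the 10 genes were called lower in KO at 3 h, beside 4.02% of all genes. They were pmelb, at -1.26 (SE 0.24, edgeR adjusted p = 0.0114), dct, at -0.69 (SE 0.15, edgeR adjusted p = 0.0216), and gpr143, at -0.87 (SE 0.23, edgeR adjusted p = 0.0458). In WT, pmelb and gpr143 are higher in replicates 3 and 4 than in replicates 1 and 2 without overlap. The p-values of this fit, with only those like libraries on the WT side, are therefore not independent evidence of a KO difference. With WT replicates 1 and 2 only, the same 3 genes had 0.12, 0.01 and -0.08, and 0 of 10 were called. In that fit tyrp1a and slc24a5 kept their signs, at -0.23 and 0.35. Some tissue markers moved with these comparisons too. With WT replicates 3 and 4 only, the muscle genes acta1b, at -0.87 (SE 0.12, edgeR adjusted p = 0.00164), and myhz2, at -0.61 (SE 0.11, edgeR adjusted p = 0.0103), were also called lower in KO at 3 h. The remaining muscle gene, ckma, was not called in that fit. Over all treatments it had 1100 to 2680 CPM in KO libraries and 1130 to 1540 CPM in WT replicates 3 and 4. The summed level of the 4 RPE markers rpe65a, rlbp1b, stra6 and best1, none of which was at 0, was 28.8 to 80.5 CPM in KO DMSO, 30.8 to 42.6 CPM at KO 3 h and 27.1 to 76.8 CPM at KO 24 h. In WT it was 63.1 to 102 CPM in DMSO, 55.2 to 77.8 CPM at 3 h and 73 to 103 CPM at 24 h. At 3 h no KO library reached the lowest WT library. Most of that sum was rpe65a, which had 26.2 to 38.3 CPM at KO 3 h and 50 to 68.5 CPM at WT 3 h. Over all treatments the KO and WT ranges of rlbp1b, stra6 and best1 overlapped, and none of these genes exceeded 7.8 CPM. Among all genes, 6.82% separated KO from WT libraries at 3 h in either direction. The part of muscle or the RPE in the values of the 10 genes was not tested.

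The WT libraries were then described by replicate number, since replicates 3 and 4 stood apart from replicates 1 and 2 at every treatment. This split was proposed with the data known and is given without a test. Replicates 3 and 4 (6 libraries) were higher than replicates 1 and 2 (6 libraries) without overlap for 3 of the 10 genes. pmelb lay at 17.6 to 24.9 CPM (median 21.2) against 7.67 to 10.8 CPM (median 10.6), and gpr143 at 8.26 to 11 CPM (median 8.91) against 5.3 to 6.63 CPM (median 6.26). For pmela the ranges were 113 to 139 CPM (median 123) against 83.9 to 109 CPM (median 103). No gene of the 10 was lower without overlap. Among all tested genes, 14.5% were higher and 14.5% lower without overlap.

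The mean difference on the log2 CPM scale, replicates 3 and 4 minus replicates 1 and 2, was 1.04 for pmelb, 0.59 for gpr143, 0.51 for tyrp1b, 0.30 for dct and 0.30 for pmela. It was 0.24 for slc45a2, 0.15 for oca2, 0.06 for tyrp1a, 0.00 for slc24a5 and -0.36 for tyr. The median of the 10 was 0.27, beside -0.02 for all genes, whose median absolute difference was 0.28. The lowest value was that of tyr, which had -0.12 in DMSO, -0.48 at 3 h and -0.47 at 24 h. Its libraries overlapped, at 4.49 to 6.89 CPM (median 6.16) in replicates 3 and 4 and 6.25 to 9.36 CPM (median 7.33) in replicates 1 and 2. Set against tyrp1b in the same library, WT replicates 3 and 4 had 3.85 to 7.14 tyr counts per 100 tyrp1b counts, and WT replicates 1 and 2 had 7.89 to 10.6. Among KO libraries this ratio ran between 2.48, in 24 h replicate 2, and 11.1, in 3 h replicate 1.

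For all 10 genes the split was largest in size at 3 h: the log2 CPM difference of replicates 3 and 4 minus replicates 1 and 2 was 1.38 for pmelb, 0.86 for oca2, 0.79 for tyrp1b, 0.77 for gpr143 and 0.69 for dct at that time. In DMSO the same genes had 0.82, -0.61, 0.34, 0.53 and 0.07, and at 24 h 0.93, 0.19, 0.39, 0.47 and 0.15. The fitted WT fold change at 3 h had different signs within the 2 sets of replicates for 8 of the 10 genes, and the same sign for gpr143 and slc24a5. Some of these values lay near 0, such as -0.01 for tyrp1a with replicates 1 and 2 only. Neither this count nor that of genes with the largest split at 3 h was made over all genes. Many of the 10 genes also vary together, so they are not separate observations. With WT replicates 3 and 4 only, the log2 fold change over DMSO was 0.25 for dct, 0.31 for tyrp1b, 0.18 for pmela, 0.21 for oca2 and -0.32 for tyr. With WT replicates 1 and 2 only it was -0.36 for dct, -0.13 for tyrp1b, -0.20 for pmela, -1.35 for oca2 and 0.05 for tyr. For gpr143 the values were 0.30 with replicates 3 and 4 and 0.06 with replicates 1 and 2, and for slc24a5 -0.45 and -0.09. None of the 10 was called in either set, and the difference between the sets was not tested. With WT replicates 1 and 2 only, 1.13% of all genes were called at 3 h. That fit had 2 libraries per group, and these are alike, so its p-values measure only the spread within such pairs. Among the called genes were the RPE gene rpe65a, at -0.70 (SE 0.092, edgeR adjusted p = 0.00449), the iridophore gene pnp4a, at -0.35 (SE 0.069, edgeR adjusted p = 0.037), and the lens gene cryaa, at -0.92 (SE 0.13, edgeR adjusted p = 0.00673). With WT replicates 3 and 4 only, rpe65a had 0.11 (edgeR adjusted p = 0.847). The part of these tissues in the values of the 10 genes was not tested.

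**Figure D3:**
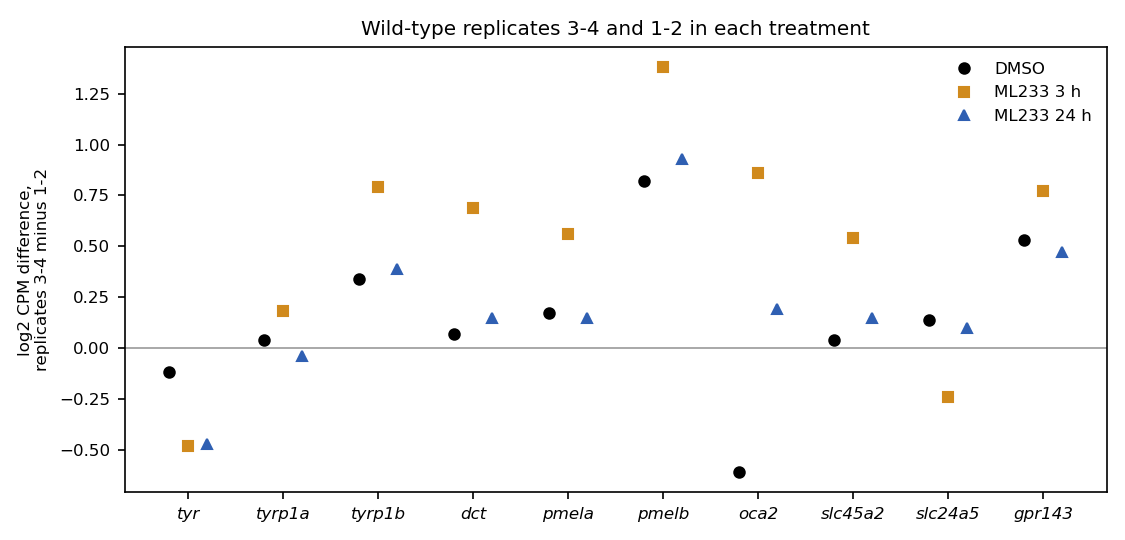
Difference in mean log2 CPM (y axis) between WT replicates 3 and 4 and WT replicates 1 and 2 for each of the 10 genes (x axis), shown for DMSO (circles), 3 h (squares) and 24 h (triangles) of ML233. Points above 0 are higher in replicates 3 and 4; pmelb is highest (0.82 to 1.38) and tyr lies below 0 at all 3 times (-0.48 to -0.12).

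Other tissues differed between the same WT replicates. Of the 8 tissue markers, 2 were higher in replicates 3 and 4 without overlap, 3 were lower and 3 overlapped, beside 14.5% of all genes in each direction. The embryonic globin gene hbbe1.1 lay at 233 to 341 CPM in replicates 3 and 4 and at 33.2 to 68.1 CPM in replicates 1 and 2. The muscle actin gene acta1b lay at 2880 to 3660 CPM against 2130 to 2440 CPM, and the neuronal gene elavl3 at 169 to 266 CPM against 304 to 321 CPM. The other 2 muscle genes overlapped, with 1130 to 1540 CPM against 1220 to 1360 CPM for ckma and 3170 to 3730 CPM against 2520 to 3240 CPM for myhz2. Of the 12 regulators of the melanocyte lineage, 6 were higher and 2 lower without overlap, beside the same 14.5% of all genes in each direction. Among them mitfa, the master regulator of melanocyte fate, had 1.99 to 3.72 CPM in replicates 3 and 4 against 0.785 to 1.66 CPM in replicates 1 and 2. The receptor tyrosine kinase gene kita had 4.3 to 9.33 CPM against 12 to 13.5 CPM, and the melanocortin receptor gene mc1r 2.05 to 3.5 CPM against 4.19 to 4.93 CPM. These 3 regulators and these tissue markers were named after their values were seen, and their part in the levels of the 10 genes was not tested.

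The 10 genes did not vary as 1 unit. Over the 24 libraries, 19 of their 45 pairs had a Pearson r of log2 CPM above 0.5, and 17 did after group means were removed. The closest pairs were tyrp1b with pmela (r = 0.94) and dct with pmelb (r = 0.85). The genes tyr, slc24a5 and oca2 stood outside: with pmela, r was -0.17 for tyr, -0.19 for slc24a5 and 0.13 for oca2. The strongest value for tyr among the 10 was with slc24a5 (r = 0.54), and it was negative with gpr143 (r = -0.52) and slc45a2 (r = -0.45). The libraries fall into the pairs described above and share normalisation, so these values are a description without a p-value.

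**Figure D4:**
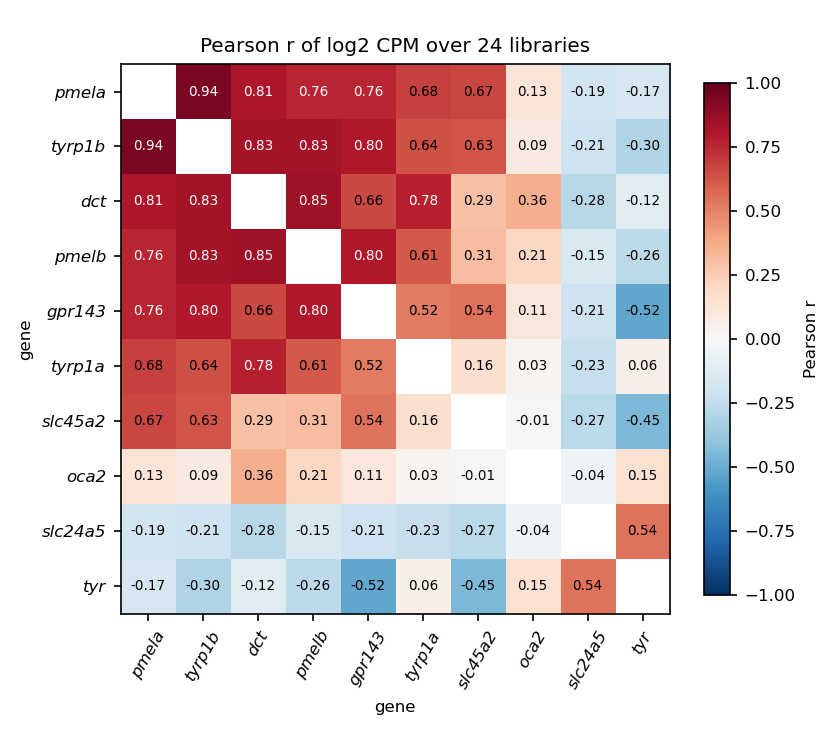
Pearson r of log2 CPM over 24 libraries for each pair of the 10 genes (both axes), coloured from -1 (blue) to 1 (red). A block of high values runs from pmela to tyrp1a, with r = 0.94 for tyrp1b and pmela, and the row of tyr is mostly near or below 0.

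Outside the 10 genes, those whose profile was most like their mean standardised level over 24 libraries were cfl2 (r = 0.93), CABZ01061524.1 (r = 0.89), tecrb (r = 0.89), epc1b (r = 0.89) and zfand3 (r = 0.88). Most like tyr were itgb1b.1 (r = 0.89), mkl2b (r = 0.87), pkn2 (r = 0.86), sdc2 (r = 0.85) and tbc1d4 (r = 0.84). The nearest profiles thus belonged to genes that the annotation does not tie to pigment by name.

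Genes that act around the 10 were followed as lists: regulators (12 tested), melanosome formation and transport (23), copper supply (5 table entries), tyrosine metabolism (9), pigment hormones (6), RPE (4), xanthophore (6) and iridophore (4) markers. Over all libraries, edgeR and DESeq2 each called 0 of these 69 entries for ML233 over DMSO in either genotype or for the difference in response. At an unadjusted p under 0.05, both tools gave 2 and 3 at KO 3 h and 24 h, 1 and 0 at WT 3 h and 24 h, and 0 for the difference at either time. By edgeR the shares of all genes were 1.51%, 2.82%, 1.68% and 0.929% in those 4 comparisons, and 0.929% and 1.14% for the difference. In KO over WT, edgeR called 1 of the 23 genes of melanosome formation and transport lower and 1 higher, at 3 h and again at 24 h. The shares of all genes called were 0.148% at 3 h and 0.459% at 24 h. In DMSO edgeR called 0 of the 69, beside 0.148% of all genes. There 6 were below an unadjusted p of 0.05, beside 10.7% of all genes. DESeq2 called 1 of the 69 in DMSO, among 402 of all genes, and it was the gene that was lower at 3 h and 24 h. All other lists had no gene called by edgeR, with a median log2 fold change of KO over WT at 3 h of -0.01 for the regulators and -0.59 for the RPE markers, beside 0.00 for all genes.

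The gene that fell was gpnmb (ENSDARG00000062688, chromosome 19, 20247435 to 20270207, minus strand), which encodes a glycoprotein related to Pmel and is transcribed in pigment cells and macrophages. In KO it had 111, 90.9, 93.6 and 103 in DMSO, 88.9, 103, 80 and 85.2 after 3 h and 77.9, 80.2, 94.9 and 71.5 after 24 h, all in CPM. In WT it had 131, 143, 120 and 138 in DMSO, 129, 130, 122 and 128 after 3 h and 129, 125, 118 and 123 after 24 h, all in CPM. All 12 KO libraries lay below all 12 WT libraries, and 0.6% of all genes were so separated in either direction. Both sets of WT replicates were alike, with 118 to 138 CPM in replicates 3 and 4 and 125 to 143 CPM in replicates 1 and 2. Its KO-over-WT log2 fold change was -0.51 at 3 h (SE 0.093, edgeR adjusted p = 0.0297) and -0.61 at 24 h (SE 0.094, edgeR adjusted p = 0.00802). In DMSO it was -0.42 (SE 0.093, edgeR adjusted p = 0.0743), which DESeq2 called (adjusted p = 0.00288). Without KO DMSO replicate 1, edgeR called it too, at -0.47 (adjusted p = 0.0437), and over all alternatives the adjusted p in DMSO ran from 0.00288 to 0.564. Fitted to the compared groups alone, the calls were lost, at an edgeR adjusted p of 0.19 for 3 h and 0.242 for 24 h.

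The gene that rose was tspan36 (ENSDARG00000024540), a tetraspanin gene known from zebrafish pigment cells. In KO it had 8.93, 7.98, 9.78 and 5.43 in DMSO, 9.83, 16.6, 10.8 and 16 after 3 h and 13.3, 12.4, 11.7 and 10.6 after 24 h, all in CPM. In WT it had 5.6, 4.72, 3.07 and 3.56 in DMSO, 6.91, 5.28, 4.55 and 3.12 after 3 h and 5.94, 3.21, 3.65 and 2.42 after 24 h, all in CPM. The groups did not overlap at 3 h or 24 h, and they overlapped in DMSO through KO replicate 4. Separation of KO from WT libraries in either direction was seen for 6.82% of all genes at 3 h and 5.86% at 24 h. Its KO-over-WT log2 fold change was 1.42 at 3 h (SE 0.27, edgeR adjusted p = 0.036), 1.66 at 24 h (SE 0.28, edgeR adjusted p = 0.0116) and 0.92 in DMSO (SE 0.27, edgeR adjusted p = 0.183). Fitted to the compared groups alone, its edgeR adjusted p was 0.172 at 3 h and 0.211 at 24 h. With WT replicates 1 and 2 only, the edgeR adjusted p at 3 h and 24 h was 0.547 and 0.268 for tspan36 and 0.415 and 0.261 for gpnmb. The log2 fold changes in those fits were 1.13 and 1.39 for tspan36 and -0.54 and -0.64 for gpnmb, with SE 0.29 and 0.30 for tspan36 and 0.12 at both times for gpnmb. Leaving out WT 3 h replicate 1, 2, 3 or 4, or KO 3 h replicate 3 or 4, also ended both calls at 3 h (edgeR adjusted p 0.0553 to 0.178), and leaving out KO 3 h replicate 1 ended that of gpnmb (0.0541). At 24 h both were lost without WT replicate 4 (0.0536 for gpnmb, 0.0714 for tspan36) and tspan36 without WT replicate 2 (0.0551).

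Among the lists without a called gene, the gene with the largest absolute log2 fold change was named for each. In the RPE list this was rpe65a, the retinoid isomerase of the visual cycle, with -0.91 for KO over WT at 3 h (SE 0.33, edgeR adjusted p = 0.265). Its KO libraries ranged from 23 to 70.8 CPM (median 33.6) and its WT libraries from 50 to 94 CPM (median 66.8). Of its KO libraries, the 6 with a first component above 0 had 23 to 30 CPM, and the other 6 had 37.3 to 70.8 CPM. Among the pigment hormones it was pomca, the precursor of melanocyte-stimulating hormone, with 2.11 for KO over WT at 24 h (SE 0.60, edgeR adjusted p = 0.107) and a DESeq2 adjusted p of 0.0136. Without KO 24 h replicate 3 it was 2.39 (edgeR adjusted p = 0.0362), and without replicate 4 it was 1.70 (edgeR adjusted p = 0.395). At 24 h, pomca had 2.65, 11.4, 2.62 and 12.8 CPM in KO replicates 1 to 4, against 1.8, 1.88, 1.64 and 1.46 CPM in WT replicates 1 to 4. The 6 KO libraries with a first component above 0 had 8.05 to 12.8 CPM over the 3 treatments, and the other 6 had 1.56 to 2.65 CPM, against 1.18 to 3.3 CPM in the 12 WT libraries. In the iridophore list pnp4a, a purine metabolism gene, had -0.76 for KO over WT at 24 h (SE 0.25, edgeR adjusted p = 0.156). Over the 3 treatments pnp4a had 17.4 to 21.7 CPM in the 6 KO libraries with a first component above 0. It had 28.2 to 42 CPM in the other 6 and 30.1 to 49.9 CPM in the 12 WT libraries. The splits within KO were not tested, and the share of all genes split in the same way was not counted. In the xanthophore list csf1ra, a receptor gene needed for xanthophores, had -0.72 for ML233 over DMSO at KO 24 h (SE 0.32, edgeR adjusted p = 0.997). Among regulators crestin, a neural crest marker, and among copper genes ccs, the copper chaperone of superoxide dismutase, had -0.66 (SE 0.48) and -0.81 (SE 0.54) for the difference in response at 24 h, with an edgeR adjusted p of 1 each. In the list of tyrosine metabolism tat, an aminotransferase gene, had 0.61 for KO over WT at 24 h (SE 0.53, edgeR adjusted p = 0.636), and among the tissue markers hbbe1.1 had -1.38 for KO over WT in DMSO (SE 0.81, edgeR adjusted p = 0.584). The name ccs has 2 entries in the table, and the value given belongs to ENSDARG00000116246.

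**Figure D5:**
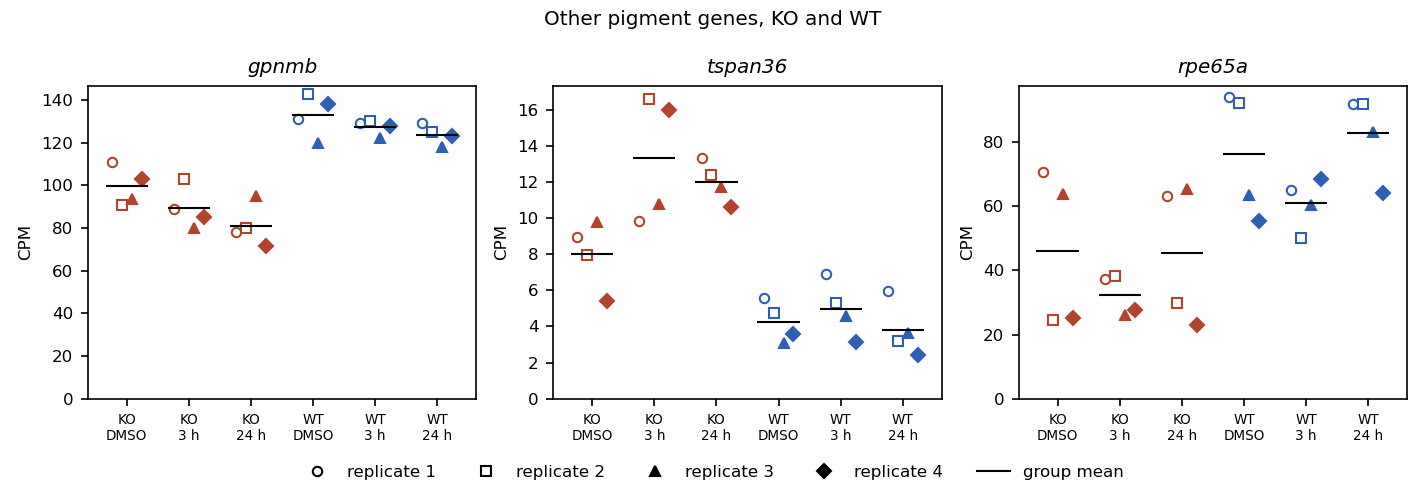
Levels of gpnmb, tspan36 and rpe65a in every library, in CPM (y axis from 0), for KO (red, left) and WT (blue, right) embryos in DMSO and after 3 h and 24 h of ML233; open symbols are replicates 1 and 2, filled symbols replicates 3 and 4, lines group means. For gpnmb all KO libraries (71.5 to 111 CPM) lie below all WT libraries (118 to 143 CPM), and for rpe65a several KO libraries lie within the WT range.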

How the data were processed

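Pooled embryos were homogenised in Trizol and their mRNA was captured on poly-T beads, primed with random hexamers and sequenced in pairs by a company, with dUTP in the second strand, per the labels' protocols. The authors deposited 1 table of whole-number counts per gene, without normalization. HISAT2 2.0.5, StringTie, featureCounts, R 4.3.2, DESeq2 1.42.1 and the build GRCz11 are named in the submitters' processing notes, without role or order. The strand setting and the annotation release are not given in the sources used here, so counts of overlapping or antisense genes are uncertain. Coordinates are those of the deposited table.

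The software was edgeR 4.0.16 on limma 3.58.1 in R 4.3.3. After a filter on low counts (filterByExpr, minimum count 10) and TMM scaling (factors 0.833 to 1.083), a quasi-likelihood model with a term for each group was fitted over all 24 libraries. Tests were two-sided, with Benjamini-Hochberg adjustment over all 27010 tested genes, and called genes are those with an adjusted p under 0.05. CPM used TMM-scaled library sizes. Each p-value sets a group difference against the spread between libraries of a group, which the model takes as independent. The pairs of like libraries described above had no term in the main model. DESeq2 1.42.0 was run as an alternative. The fit was tested on simulated counts of 2 groups of 4 libraries that varied independently. That simulation held no pairs of like libraries within a group, so it does not cover the pairs described above. The column of every library matched its labels, and 0 other columns of per-sample values were present. Counts of any 2 replicates differed by more than sampling noise, so no library was counted as a copy.

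The 10 genes, the lists and the split of WT libraries were chosen with earlier results of these data known. All 10 genes are named, and of each list the called genes or else the gene with the largest absolute log2 fold change over 9 contrasts, plus the 5 genes most like tyr and the 5 most like the mean of the 10. Deviations from group means were correlated between libraries of the same replicate number. All pairs had a positive r for WT 3 h and WT 24 h against DMSO (0.391 to 0.473 and 0.349 to 0.512). The same held for KO 24 h against DMSO (0.487 to 0.624) and KO against WT at 3 h (0.191 to 0.374). In the other comparisons some pairs had a negative r. Libraries of different numbers were not set beside these values. They therefore cannot tell pairing by number from the sets of like libraries described above. Of the list genes, 5 were not analysed here for want of a matching name in the table, and promoter motifs were not analysed here.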

Additional observations from a re-analysis of the deposited data

Results flagged for a closer look

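The response of slc24a5 to 3 h of ML233 differed in sign between genotypes: all 4 KO libraries lay above the mean of KO DMSO and all 4 WT libraries below the mean of WT DMSO. The tested difference between the KO and the WT log2 fold change was 0.65 (SE 0.29, unadjusted p = 0.0372, edgeR adjusted p = 1), so it did not pass the adjustment over all genes. Over the alternatives it ranged from 0.48 to 0.83, with WT replicates 1 and 2 only at the low end and WT replicates 3 and 4 only at the high end. No single library of the 10 genes stood far from the other 3 of its group by Dixon's test, in 0 of 60 groups of values. About 3 would be found by chance if the groups were independent, but they share libraries. A group that falls into pairs of like libraries can hardly reach the threshold of this test. The 0 therefore does not show that no library was unusual.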

How the results depend on the processing

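The count of called genes among the 10 stayed at 0 in all 9 comparisons under RLE size factors, no filter, a minimum count of 50, DESeq2 and fits to the compared groups only. The replicate block also gave 0 in each and changed no call of the 10 genes, gpnmb or tspan36. Leaving out single libraries gave 0 called genes in each comparison. The exception was KO over WT at 3 h with WT replicates 3 and 4 only, a set chosen after seeing the data, which called 3 genes. The count of the 10 genes that separate WT replicates 3 and 4 from 1 and 2 was 3 to 6 when 1 replicate number was left out. It reached 6 without WT replicate 4, when tyrp1b, dct and slc45a2 joined, with 3 libraries on 1 side in place of 6, beside 19.4% of all genes higher and 20.6% lower. Without WT replicate 2, 3 genes were higher and 1 was lower, beside 18.6% of all genes higher and 18.9% lower. The lower gene was tyr, at 6.89 CPM or less in replicates 3 and 4 against 7.21 CPM or more in replicate 1. The cause was not tested. Of 1560 alternative fold changes, 1541 kept their side of the threshold and moved by less than the SD between libraries, 16 moved by more and 3 passed the threshold. None of the 10 genes was called in the main fit, so no call could be lost or reversed. Changes of sign were not counted here.

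Counts over all genes depended on the fit: with 40, 40 and 124 genes called in KO over WT in DMSO, at 3 h and at 24 h, DESeq2 called 402, 491 and 755, and the fit to the compared groups only called 0, 0 and 1. Without KO 24 h replicate 3 the count at 24 h was 796, and without WT 24 h replicate 4 it was 0. In WT 3 h over DMSO the count was 0, or 299 with WT replicates 1 and 2 only, a fit with 2 like libraries per group. At 20 to 113 counts per library for oca2 and 29 to 91 for slc24a5, counting alone would give a coefficient of variation of 15% and 13.5%, against 38.7% and 17.6% measured within groups.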

Other observations

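Breakdown of tyrosine, the substrate of tyrosinase, runs mainly in the liver, and its genes differed between WT replicates. Of 9 listed genes of tyrosine metabolism, 4 were lower in WT replicates 3 and 4 than in WT replicates 1 and 2 without overlap and 0 were higher, beside 14.5% of all genes in each direction. The aminotransferase gene tat lay at 2.64 to 4.69 CPM against 13 to 16.5 CPM, and the dioxygenase gene hpda at 45.5 to 51.6 CPM against 108 to 133 CPM. The dioxygenase gene hgd lay at 33.7 to 39.7 CPM against 57.2 to 68.6 CPM, and pah, whose product makes tyrosine, at 64.6 to 72.7 CPM against 81.1 to 87.8 CPM. In KO libraries tat ranged from 11.6 to 16 CPM. KO over WT was 0.61 for tat at 24 h over all libraries (SE 0.53, edgeR adjusted p = 0.636), 2.05 with WT replicates 3 and 4 only (SE 0.21, edgeR adjusted p = 0.000274) and -0.09 with WT replicates 1 and 2 only (SE 0.14, edgeR adjusted p = 0.719). Both sets of WT replicates were chosen with these levels known. The p-values of those 2 fits are therefore not independent evidence of a KO difference. The liver gene fabp10a lay at 116 to 172 CPM in WT replicates 3 and 4 against 252 to 356 CPM in WT replicates 1 and 2, and its part in these values was not tested.

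Markers of the yellow pigment cells split both ways between the same WT replicates. The xanthophore genes gch2 (23.3 to 57.1 against 9.91 to 15.7 CPM) and aox5 (15.8 to 21.4 against 9.95 to 11.9 CPM) were higher in WT replicates 3 and 4. The genes xdh (26.4 to 34.9 against 54.1 to 59.6 CPM) and csf1ra (8.14 to 15.5 against 18.3 to 23 CPM) were lower. Apart from tat and csf1ra, the genes of these 2 paragraphs were named after their values were seen. The 2 sets of WT replicates were not tested against each other.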
